A study of Caenorhabditis elegans with 609 samples.

Results

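The 200 genes described here are those whose transcripts differed most among independently grown cultures of the same *Caenorhabditis elegans* strain. They were chosen by value from 7218 genes with a mean of at least 10 TPM over all samples (TPM, the length-adjusted abundance of a transcript relative to all transcripts of its library), as the genes with the largest pooled standard deviation (SD) of log2(TPM + 0.5) within strains. The SD was pooled over 608 samples of 207 strains, of which 194 had 3 cultures and 13 had 2, which left 401 degrees of freedom. JU2800, a strain with 1 sample, entered the mean TPM only. Since the SD chose the genes, it is given as a description and with no test.

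The strains were wild isolates and the laboratory strain N2, each a genotype of its own with no transgene and no treatment. All samples were whole young adult hermaphrodites, so the values are sums over all tissues. The populations were synchronized by bleaching, fed *Escherichia coli* and harvested once the first embryo was seen on the plate, and RNA was enriched for poly(A) before sequencing. The labels give a strain, 1 of 2 successive years (418 samples of the earlier and 190 of the later) and a sequencing pool. Of the 14 pool codes 8 were single, and none of these was in both years. The other 6 were joined codes, carried by 31 samples labelled with the later year and with the prefix GZm. Each joined code was made of the digits of 2 single codes, 1 of the earlier and 1 of the later year. The sample titles also hold a prefix (GZ in 470 samples, GZr in 107, GZm in 31), 1 of 9 plate-like codes and a well-like code. The sources used here do not say what the prefixes and joined codes mean, or whether the year is that of culture or of sequencing. In 136 strains both years were among the labels. Cultures are numbered here only to name them.

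In *C. elegans* the cuticle is a collagen coat that is rebuilt at each moult, and collagen genes are transcribed in waves around the moults. Hermaphrodites make their sperm as larvae and then change to oocytes, so transcripts of sperm proteins are carried into early adulthood. Ribosomal RNA has no poly(A) tail as a rule, and poly(A) selection leaves a small and variable part of it in a library. Genes of these classes recur among the 200.

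Sequencing depth, as the total of estimated counts in a library, was 28772489 in the middle library, 15461168 in the shallowest and 280262722 in the deepest. Adult tissue markers were present in all samples, with at least 80.2 TPM of the yolk gene vit-5, 81.2 TPM of the oocyte gene rme-2 and 324 TPM of the adult cuticle collagen col-19. The male markers try-5, lov-1 and pkd-2 reached at most 0.981, 0.0808 and 0.326 TPM. As a check of the labels, the samples were compared over 176 genes with a strain share of variance above 0.8. In 16 of 608 cultures the best correlated culture belonged to another strain. In 3 of them the correlation with the other strain exceeded that with the own strain by more than 0.4. Culture 2 of JU1793 had r = 0.976 with a culture of JU360 and 0.0556 with its own strain, culture 1 of BRC20263 had 0.885 with BRC20067 and 0.239 with its own strain, and culture 1 of BRC20067 had 0.804 with BRC20263 and 0.385 with its own strain. These 3 libraries went against their labels. Cultures 2 and 3 of BRC20263 were also among the 16, so no culture of BRC20263 was closest to its own strain. Culture 2, the closest match of culture 1 of BRC20067, had r = 0.804 with it and 0.523 with its own strain. Culture 3 had 0.613 with a culture of JU2853 and 0.523 with its own strain. The limit of 0.4 kept both. Without the 3 libraries beyond that limit, 191 of the 200 genes stayed among the 200 most variable.

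Over all 7218 genes the SD among cultures of a strain had a median of 0.277, with quartiles of 0.239 and 0.357. The 200 genes began at 0.971, had a median of 1.08 and ended at 4.04, and 151 were above 1, which is a factor of 2 in TPM for each SD. The 3 genes just inside the limit were msrp-6 (0.972), msp-33 (0.972) and msp-45 (0.971), and the 3 just outside were cylc-2 (0.971), F08B4.8 (0.971) and ssp-34 (0.970). The limit thus lay inside a dense group of genes of the same SD. The median over strains of the SD within a strain was 0.782 for the 200 genes and 0.171 for all genes, and the 200 genes by that measure shared 145 with the list.

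**Figure D1:**
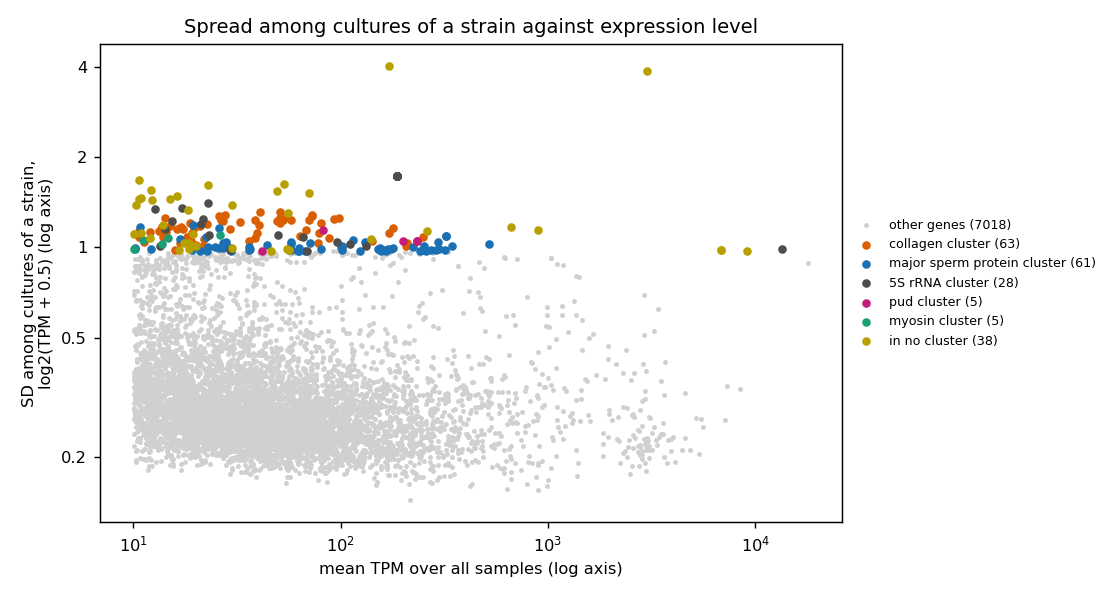
Pooled SD of log2(TPM + 0.5) among cultures of a strain against mean TPM, both on log axes, for 7218 genes. Coloured points are the 200 genes by cluster, grey points the other genes, which lie below the limit of 0.971.

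By annotation, 147 of the 200 genes were protein-coding, out of 7034 measured (2.09%), 7 were pseudogenes of 82 measured and 46 were non-coding RNA genes of 101 measured (45.5%). The share over all genes was 2.77%. Of 18 measured rRNA genes 17 were among the 200, as were 13 of 19 snoRNA genes. Of the lists of named gene families, cuticle collagens gave 47 of 87 measured genes with a median SD of the whole list of 1.02, and sperm genes gave 24 of 87 (27.6%), with a median of 0.936. Chromosome V held 55 of the genes (4.59% of its measured genes), these 12 5S genes included. Chromosome IV held 46 (3.57%) and chromosome III held 12 (0.867%).

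The depth behind the genes differed. The median estimated count per sample was 203.5 in the middle gene of the 200, against 1427 in the middle gene of all, and 40 of the 200 genes were under 50, of which 25 were non-coding. Of the 7218 genes 102 were under 50. Counting error is part of the SD of such genes, for which intervals are not given, since reads are not independent molecules.

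The deviations of the cultures from their strain mean were correlated gene by gene over the 608 cultures, which share libraries and depth, and the 200 genes were grouped by average linkage. Separated at r of about 0.5, the tree gave clusters of 130, 33 and 5 genes and left 32 genes outside. A finer separation, at height 0.4, divided them into 5 clusters of 63, 61, 28, 5 and 5 genes, with 38 genes outside, and these are named here by their leading genes. They are a cluster of collagens, one of major sperm proteins, one of 5S rRNA with other structural RNAs, the pud genes, and one of pharyngeal myosins. The median correlation between genes within strains was 0.843 in the collagen cluster, 0.892 in the major sperm protein cluster, 0.727 in the 5S rRNA cluster, 0.835 in the pud cluster and 0.936 in the myosin cluster.

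**Figure D2:**
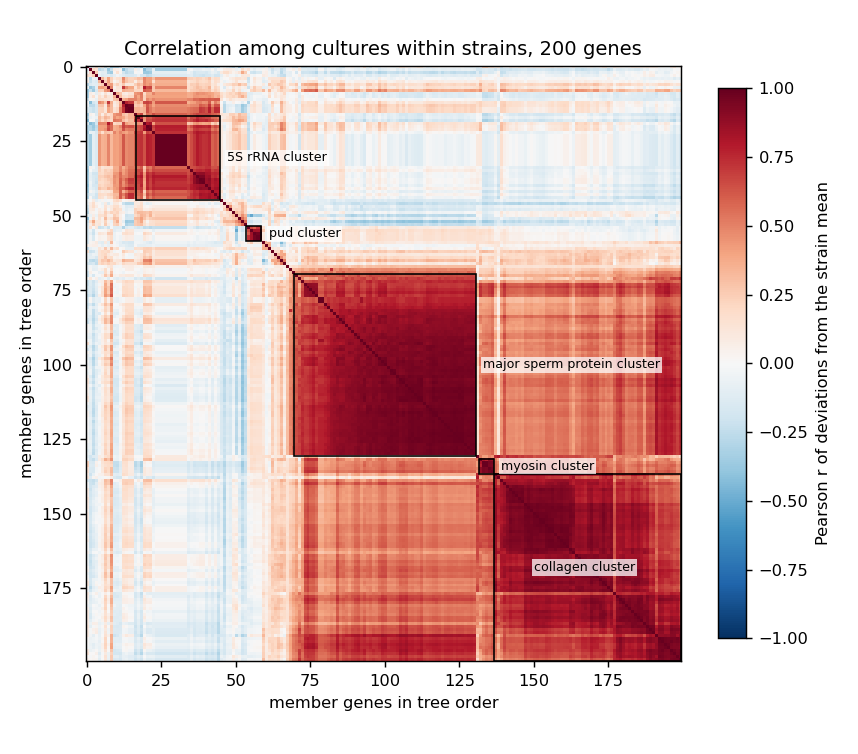
Pearson correlation of the deviations from the strain mean between all pairs of the 200 genes, in the order of the tree, over 608 cultures. Black squares mark the 5 clusters (63, 61, 28, 5 and 5 genes); the collagen, myosin and major sperm protein clusters are also correlated with each other, and the 5S rRNA and pud clusters are not (r of 0.161 or less with any other cluster).

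The collagen, major sperm protein and myosin clusters moved together from culture to culture. Within strains, the mean of the collagen cluster had r = 0.651 with that of the major sperm protein cluster and 0.656 with that of the myosin cluster, and the major sperm protein and myosin clusters had 0.590. Across the means of the 207 strains the same pairs had 0.557, 0.789 and 0.602. The 5S rRNA cluster had r between -0.0916 and -0.00514 to the other clusters within strains, and the pud cluster had -0.00017 with the collagens, 0.148 with the myosins and 0.161 with the major sperm proteins. These correlations describe 608 libraries and 207 strain means and carry no test. None of the cluster means followed depth, with r between -0.0989 and 0.0516 to the log2 total count within strains.

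The collagen cluster held 63 genes, among them all 47 of the members in the collagen list. They included 39 col genes and 9 dpy, sqt, rol and bli genes, named for the body shape or blisters of their mutants. The others were grl-16, a ground-like gene, cut-2, a cuticlin, and genes known by their sequence name only. Their SD ran from 0.978 to 1.31. In the middle strain the mean of the cluster differed by 2.77-fold between its highest and lowest culture, in 66.2% of the strains by more than 2-fold and in 26 by more than 8-fold.

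The values of dpy-5, a collagen needed for normal body length, show the pattern. Over the 608 cultures dpy-5 ran from 0.531 to 1157 TPM with a median of 18.4. In strain JU2906 it had 3.29, 228 and 4.22 TPM in cultures 1, 2 and 3, where estimated counts were 46, 6302 and 80. Culture 2 alone was high. The same culture was high in dpy-13 (1.79, 289 and 4.48 TPM), in sqt-3 (5.05, 181 and 3.96 TPM) and in bli-2, a collagen of the cuticle struts (0.466, 44.7 and 0.610 TPM). Of the moulting markers, mlt-10 had 1.51, 15.7 and 1.16 TPM in these cultures and noah-1 had 0.520, 4.77 and 0.729 TPM, so both were also high in culture 2. The major sperm protein gene msp-3 had 166, 244 and 168 TPM there, a smaller spread. Culture 2 also differed in Y113G7A.22, a gene that was at 0 in 152 cultures and had 0, 624 and 0 TPM in this strain, although culture 2 was not among the 16 that were closest to another strain.

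Strain JU3132 had the largest spread of the cluster mean, 33.6-fold. Its collagen col-77, the gene closest to the cluster mean (r = 0.980), had 5.82, 58.2 and 375 TPM, and dpy-5 had 6.97, 20.4 and 202 TPM. Culture 3 was the highest in both, and it was also the highest of the 3 in mlt-10 (2.63, 1.75 and 11.5 TPM) and in msp-3 (60.8, 230.1 and 322 TPM). The smallest spread was in JU3134, where both cultures were low, with 5.61 and 3.95 TPM of col-77. Some strains were high in every culture. In NIC258, col-77 had 672, 1029 and 568 TPM, above the highest quartile of 62.0 TPM over all cultures.

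The major sperm protein cluster held 61 genes, with 19 msp genes, 4 msrp genes, 3 nspa genes and 5 fipr genes, and with gsp-3, a protein phosphatase of sperm, and spch-1, a sperm chromatin protein. Major sperm protein forms the cytoskeleton of the crawling sperm and signals to oocytes. Their SD was in a narrow range, from 0.971 to 1.19 with a median of 0.996, so many of them lay near the limit that chose the genes. The mean of the cluster differed by 1.91-fold between the extreme cultures of the middle strain, by more than 2-fold in 47.8% of the strains and by more than 8-fold in 23.

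Over all cultures msp-3 ran from 1.48 to 497 TPM with a median of 134. Strain JU1652 had the largest spread of the cluster mean, 28.4-fold, and its msp-3 had 5.25, 237 and 238 TPM. Culture 1 alone was low. It was low as well in gsp-3 (2.07, 50.6 and 58.0 TPM) and spch-1 (3.60, 87.8 and 92.0 TPM), while the oocyte gene rme-2 was highest there (626, 291 and 342 TPM). The collagen dpy-5 was low in all 3 of these cultures, with 3.77, 4.06 and 10.5 TPM. At the other end, GXW1 had msp-40 at 553, 515 and 530 TPM, which do not stand apart. In NIC515, the strain with the lowest cluster mean, msp-3 was low in every culture, with 7.46, 2.38 and 2.43 TPM.

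**Figure D3:**
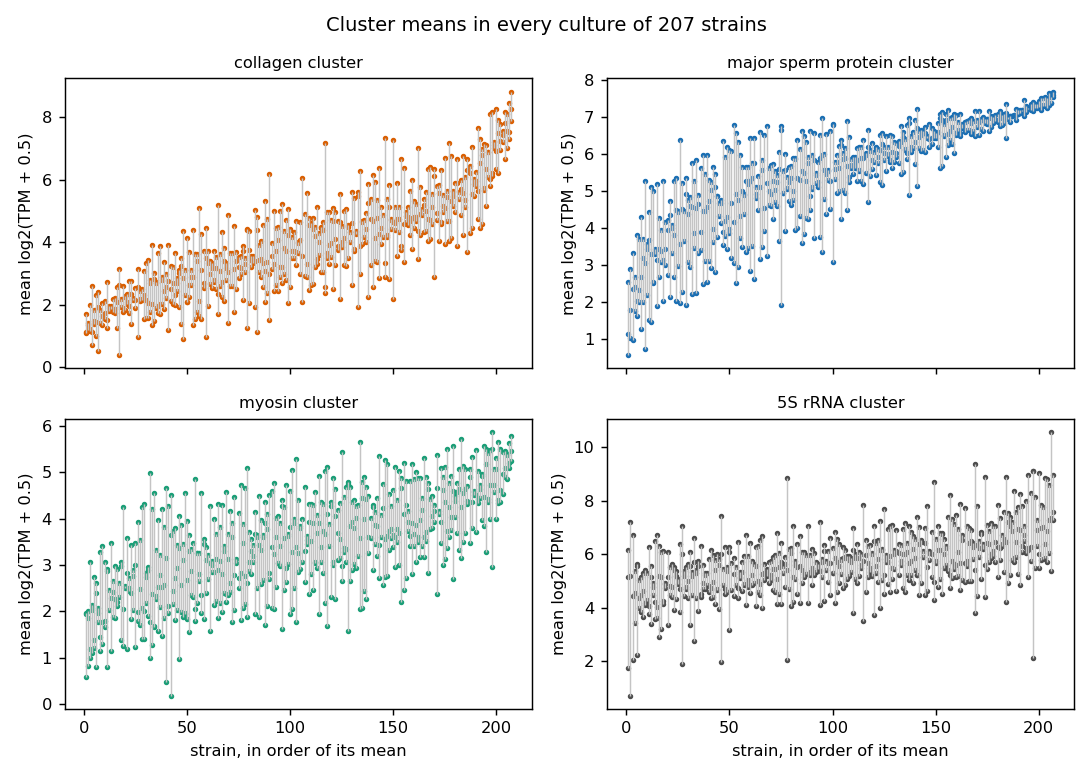
Mean log2(TPM + 0.5) of the genes of 4 clusters in each of 608 cultures; each position on the horizontal axis is 1 of 207 strains in the order of its mean, points are cultures and grey lines join those of a strain. The range within a strain is over 2-fold in 75.8% of the strains for the 5S rRNA cluster and in 47.8% for the major sperm protein cluster.

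The myosin cluster held 5 genes, myo-1 and myo-2, the myosin heavy chains of the pharynx muscle, tnt-4, a troponin T, and marg-1 and Y73F4A.2. The mean of the cluster differed by 3.01-fold between extreme cultures of the middle strain and by more than 2-fold in 78.7% of the strains, more than in any other cluster. The spread of tnt-4 reached 1.35, 22.1 and 47.1 TPM in JU1652, where culture 1, low in the sperm genes, was low again. In ED3049, myo-2 had 49.7, 1.57 and 2.97 TPM and gsp-3 had 26.3, 0.454 and 3.84 TPM, so that culture 1 was high in both. The body wall muscle genes myo-3 and unc-54 were not among the 200, with an SD of 0.646 and 0.637, but their deviations had r = 0.774 and 0.645 with the mean of the myosin cluster.

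Markers of other stages moved with these clusters, and their part in the result was not tested. In whole animals, fewer cells of a type and less RNA per cell cannot be told apart. Within strains the collagen cluster had r = 0.692 with mlt-10, 0.552 with mlt-11 and 0.535 with noah-1, all 3 of the moulting markers, whose levels ran from 0.413 to 103 TPM, from 0.0463 to 29.7 TPM and from 0.244 to 58.1 TPM. The myosin cluster had r = 0.541, 0.435 and 0.477 with the same markers, and the major sperm protein cluster had 0.199, 0.163 and 0.104. The oocyte markers rme-2, cbd-1 and puf-5 had r between -0.563 and -0.423 with the major sperm protein cluster. They had r between -0.492 and -0.333 with the collagen cluster and between -0.316 and -0.166 with the myosin cluster. All 5 embryo markers had negative correlations with the collagen, major sperm protein and myosin clusters. The strongest was -0.575 for end-1, an endoderm transcription factor, with the major sperm protein cluster. With the myosin cluster these 5 markers had r between -0.247 and -0.0178. The levels of the embryo markers were low. The highest were 7.30 TPM for pes-10, 4.53 for end-3, 2.61 for end-1, 1.95 for tbx-37 and 1.07 for hlh-27, and each was at 0 in some cultures, from 12 for pes-10 to 250 for hlh-27. The 3 male markers, near 0 in all cultures, had r between 0.115 and 0.300 with the collagen and major sperm protein clusters.

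The 5S rRNA cluster held 28 genes, of which 27 were non-coding. They were 11 copies of the 5S rRNA gene, rrn-2.1, which encodes the 5.8S rRNA, 7 snoRNA genes, rpr-1 and mrpr-1, the RNAs of RNase P and RNase MRP, 3 genes of the signal recognition particle RNA, sup-6, annotated as an snRNA gene, and 3 genes of the mitochondrial genome. The mean of the cluster differed by 3.22-fold between extreme cultures of the middle strain, by more than 2-fold in 75.8% of the strains and by more than 8-fold in 32. The 11 5S copies had the same values in every sample. Their profile thus counts 11 times in the mean of the cluster and in its medians.

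Together, all annotated rRNA made up 0.968 to 48.4% of a sample's TPM, with a median of 3.45%, and its share differed by 2.69-fold between the extreme cultures of the middle strain. The largest spread of the cluster mean, 131-fold, was in JT11398. There rrn-2.1 had 57274, 6867 and 57004 TPM, and cultures 1 and 3 were high. The 18S rRNA gene rrn-1.1, which is not in the cluster, had 5791, 5889 and 9120 TPM in the same cultures, so that culture 2 was not low. In NIC529, culture 1 was high in rrn-2.1 (29232, 8280 and 4440 TPM), in the mitochondrial rRNA genes MTCE.7 (254, 41.1 and 25.3 TPM) and MTCE.33 (77.7, 15.3 and 7.27 TPM) and in ND6, subunit 6 of NADH dehydrogenase (989, 94.4 and 38.6 TPM). ND6 was the only protein-coding gene of the cluster. In that strain msp-3 had 205, 332 and 284 TPM and dpy-5 had 9.54, 41.6 and 10.6 TPM, without a high value in culture 1. Within strains the adult markers col-19 and rme-2 had r = -0.597 and -0.444 with the mean of the cluster. TPM of a sample sum to a constant, so a larger rRNA share lowers the TPM of all other genes. When protein-coding genes alone were rescaled to a constant sum and ranked among themselves, 146 of the 147 protein-coding genes stayed among the 200 most variable. The places of the non-coding genes and pseudogenes were then free, which makes staying easier, and the limit was 0.969. How far the rRNA share entered the SD of other genes was not tested.

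The largest SD values were those of gene copies and overlapping genes that share reads. The 11 copies rrn-4.1, rrn-4.2 and rrn-4.6 to rrn-4.14 had the same TPM to 4 decimals in every sample, as had the pairs nspa-6 and nspa-7, pud-2.1 and pud-2.2, and rrn-1.1 and rrn-1.2, so that the 200 genes hold 187 separate profiles. Another 5S gene, rrn-4.15, had the largest SD of all (4.04) and ran from 0 to 18660 TPM. It was under 1 TPM in 414 of 608 cultures and the other 11 copies in 8, and in no culture were both under 1 TPM. In JT11398, rrn-4.15 had 0, 698 and 0 TPM where rrn-4.12 had 2545, under 1 and 2442 TPM. Summed over all 16 listed 5S copies, the SD was 1.32, with sums from 68.4 to 57107 TPM. The sum thus stayed above the limit of the 200 genes, and the SD of a single copy also holds how the reads were divided among copies.

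The second largest SD, 3.90, was that of F31C3.13, a non-coding gene on chromosome I (WBcel235, 15070431 to 15070580, minus strand) that lies in full inside the 18S rRNA gene rrn-1.2 on the opposite strand. It ran from 0, in 48 cultures, to 125287 TPM. In MY795 it had 0, 52646 and 1878 TPM, and rrn-1.1 had 49535, 35564 and 9492 TPM. Summed with both 18S copies the SD was 0.913, under the limit. In 4 other genes at least 50% of the exon bases lay opposite an exon of another gene, among them F31C3.16 (97.0%, opposite rrn-3.56) and T27A10.8 (91.0%, opposite the yolk gene vit-3), and in msd-2 on the same strand as F44D12.16. The sources used here do not say that strand was used in the counting, so reads of such partners cannot be told apart.

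The pud cluster held 5 genes of chromosome V, pud-1.1, pud-1.2, pud-2.1, pud-2.2 and pud-3, known for a higher level when insulin signalling is low. Its genes were present in some strains and at or near 0 in others. The TPM of pud-2.1 was 0 in 112 cultures, had a median of 115 and reached 3399. It was 0 in all 3 cultures of ECA705, along with the other 4 genes. The largest spread was in JU1793, where pud-2.1 had 8.07, 1100 and 0 TPM, and pud-1.1 had 9.30, 1183 and 0 TPM. Culture 2 is the library that went against its label, and in JU360, the strain it was closest to, pud-2.1 had 1056, 1086 and 1809 TPM. Without the 3 libraries the SD of pud-2.1 was 0.979 in place of 1.05, while the limit was then 0.951.

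Of the 38 genes outside the clusters, 19 were non-coding, 15 protein-coding and 4 pseudogenes, and 22 had a median estimated count under 50. The small heat shock protein gene hsp-16.41 ran from 0 to 442 TPM and had 1.26, 11.2 and 46.9 TPM in JU3132. The genes most like it within strains, over all 7218 genes, were hsp-16.11 (r = 0.964), hsp-16.2 (0.957) and hsp-16.48 (0.943), with SDs of 0.839, 0.925 and 0.851 under the limit. The antimicrobial peptide gene nlp-28 was most like its neighbour nlp-29 (r = 0.732), the C-type lectin clec-47 most like msra-1, a methionine sulfoxide reductase (0.880), and dbd-2 most like the collagen sqt-3 (0.807). For hprt-1, an enzyme of purine salvage, the most similar gene was dhs-3, a lipid droplet dehydrogenase (0.761). The long non-coding RNA gene linc-168 was most like ND6 of the mitochondrial genome (0.790). The TPM of coq-8, of ubiquinone synthesis, was 0 in 12 cultures and had a median of 16.6, and in JU1568 it was 26.2, 0 and 18.6.

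How far the spread was concentrated was measured as the part of a gene's within-strain sum of squares in the 10 strains with the largest sums. It would be 4.83% only if every strain had exactly the same sum. Sums from 2 or 3 cultures differ by sampling and the largest are taken, so strains of equal variance would give more. That level was not computed, and the values are for comparison among genes. The median of the 200 genes was 24.6%. It was highest for ZK380.t2 (76.2%), annotated as a pseudogene, nspd-5 (55.3%), of a sperm gene family, and pud-2.1 (52.8%). In ZK380.t2 the strain with the largest spread was again JU1793, with 0, 751 and 0 TPM, and culture 2, which went against its label, was the one present. Without the 3 such libraries its SD was 1.09 in place of 1.17. In nspd-5 it was MY2212, with 0, 0 and 448 TPM, and culture 3 was the one present. This culture was 1 of the 16 that were closest to another strain, here JU2565 (r = 0.737, against 0.497 with its own). The lowest values were those of rrn-4.15 (14.3%), nspa-2 (16.3%) and tnt-4 (17.4%), whose spread was divided over many strains.

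The genes differed in how much of their variance lay between strains. The strain share of variance, estimated as the between-strain variance component over the sum of the between-strain and within-strain components and bounded at 0, had a median of 0.584 in the 200 genes and 0.371 in all genes. It was 0.599 in the protein-coding members and 0.0143 in the non-coding ones. By cluster the median was 0.591 for the collagens, 0.615 for the major sperm proteins, 0.194 for the myosins, 0.929 for the pud genes and 0 for the 5S rRNA cluster. The highest values were those of Y113G7A.22 (0.946), nspd-5 (0.939) and ZK380.t2 (0.933). The estimate was 0 in 20 genes, among them the 11 5S copies of the same values, rrn-2.1, mrpr-1 and F31C3.13.

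**Figure D4:**
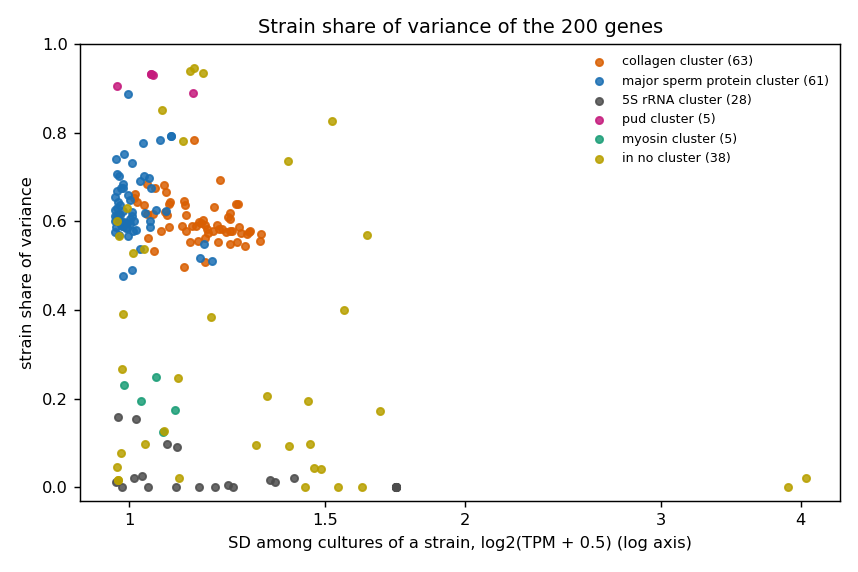
Strain share of variance against the SD among cultures of a strain (log axis) for the 200 genes, by cluster. The pud genes lie between 0.890 and 0.932, the collagen cluster between 0.497 and 0.784 and the 5S rRNA cluster between 0 and 0.158.

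Tests for strain, pool and year use the within-strain spread that chose the genes, so their counts stand beside those of all genes and nothing is read from them. With limma and an adjusted p under 0.05 over all 7218 genes, 165 of the 200 genes differed among strains, against 97.3% of all genes. These were 146 of the 147 protein-coding members and 13 of the 46 non-coding ones. Within strains, 196 of the 200 genes differed among sequencing pools, against 99.4% of all genes. Pool accounted for a median of 16.8% of the within-strain sum of squares in the 200 genes and 22.7% in all genes. The range in the 200 genes was from 3.20 to 55.6%, the highest in ZK380.6. Pool terms take some part of the sum even where pools do not differ, and that level was not computed.

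Of the 200 genes, 57 differed between the years within strains, against 57.1% of all genes. Of these, 28 were higher in the later year, as were 5.45% of all genes called, and 29 were lower, as were 94.5%. The split depends on the scaling, and it was 52 higher and 14 lower with median-ratio factors, where 38.8% of all genes were called, and 43 and 11 with TMM-scaled CPM, where 33.3% were. It depends on the samples as well. With the samples kept by a rule on distances, 14 of the 200 genes were higher and 87 lower (51.04% of all genes called). Without replicate 3 of each strain 3 were called in all (3.159% of all genes). In strains with both years among the labels, replicate 3 mostly carried the later year. The year test then rested on fewer strains, so the 3 cannot be set against the 57. Year and pool cannot be told apart among the single codes, none of which was in both years. The joined codes, whose meaning is not given, were kept as levels of their own. Samples with joined codes entered the year test as samples of the later year, though their codes join pools of both years. The largest differences on the log2 scale were in rrn-4.15 (1.86, SE 0.41), pud-1.2 (0.63, SE 0.12) and ZK185.9 (0.56, SE 0.11), a snoRNA gene, which were higher in the later year, and in F31C3.13 (-1.27, SE 0.40), ZK380.6 (-1.18, SE 0.15) and linc-168 (-1.09, SE 0.13), which were lower. By cluster the median difference was -0.12 for the collagens, 0.18 for the major sperm proteins, -0.22 for the myosins and -0.11 for the 5S rRNA cluster.

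The deviations of the cluster means differed among pool labels, and not in the same way in every cluster. In GZpool_01 (n = 73) the mean deviation from the strain mean was 0.35 ± 0.83 (SD) on the log2 scale for the collagen cluster, 0.54 ± 0.84 for the major sperm protein cluster and 0.63 ± 0.81 for the myosin cluster, and in GZpool_03 (n = 79) it was -0.34 ± 0.79, -0.29 ± 0.73 and -0.55 ± 0.78. The 5S rRNA cluster was lowest in GZpool_08 (-0.51 ± 1.09, n = 90) and among the pools of at least 50 cultures highest in GZpool_07 (0.37 ± 0.67, n = 69). In the 7 pools of at least 50 cultures the SD among cultures was larger than the pool mean in every cluster. Some small pools went the other way, such as GZpool_0108 (n = 9) with 1.21 ± 0.68 for the major sperm protein cluster and 0.89 ± 0.46 for the myosin cluster. The plate-like code accounted for 25.3% of the within-strain sum of squares of the major sperm protein cluster mean, 25.4% of the myosin, 13.9% of the 5S rRNA, 9.86% of the collagen and 8.38% of the pud cluster mean, and the prefix for at most 3.43%. The part of plate, prefix and pool in these results was not tested separately. With the pool removed along with the strain, 180 of the 200 genes stayed and the clusters again had 130, 33 and 5 genes.

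**Figure D5:**
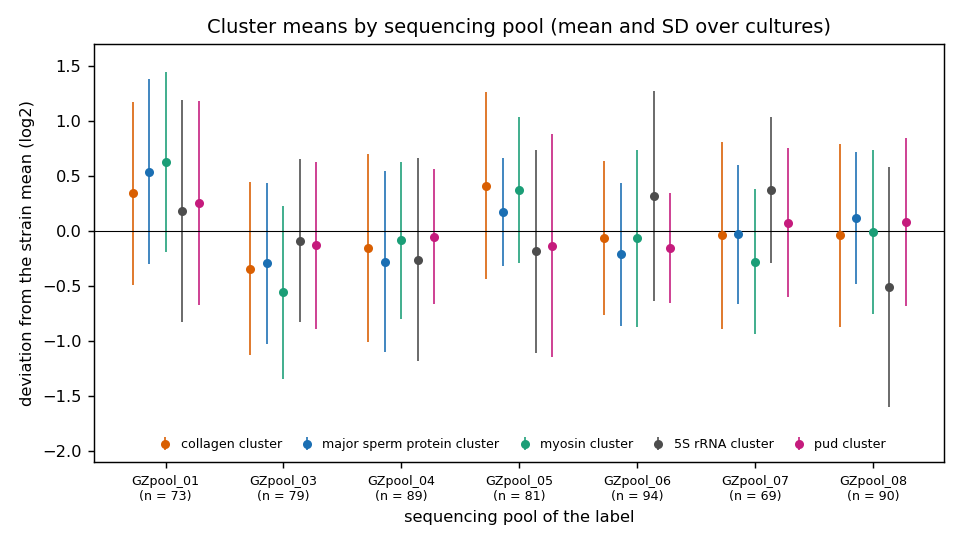
Deviation of the cluster means from the strain mean, on the log2 scale, in the 7 sequencing pools with at least 50 cultures; points are means and bars the SD over cultures. The bars of these 7 pools cross 0.

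A rule on the distances between samples of the same and of other strains left out 49 of the 608 cultures (8.06%). They held 23.9% of the within-strain sum of squares of the collagen cluster mean, 33.3% of that of the major sperm protein cluster, 18.6% of that of the myosin cluster and 10.2% of that of the 5S rRNA cluster. Culture 2 of JU2906, culture 3 of JU3132 and culture 1 of JU1652 are among them. In the 559 cultures kept, the SD of the cluster mean was 0.893 in place of 1.05 for the collagens, 0.705 in place of 0.933 for the major sperm proteins, 0.915 in place of 1.01 for the myosins and 1.18 in place of 1.203 for the 5S rRNA cluster. The rule leaves out cultures that lie far from others of their own strain. A lower spread in the kept cultures thus follows in part from the rule, as does the large part held by those left out. Of the 200 genes 162 stayed among the most variable. Among the 200 most variable genes of the kept cultures, 48 were listed collagens, 7 sperm genes and 53 non-coding genes, against 47, 24 and 46 over all cultures. The count of sperm genes thus moved with the cultures included.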

How the data were processed

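Poly(A) RNA of 609 cultures of 208 strains was sequenced. The authors trimmed reads with fastp 0.20.0 and quantified them with kallisto 0.44.0 against strain-specific transcriptomes made from the N2 reference and transposable element sequences. They deposited estimated counts and TPM per transcript, one column for each culture, without pooling. Here transcripts were summed to 46929 genes by sequence name, transposable elements were left out, and TPM were put on the scale log2(TPM + 0.5). Estimated counts served for depth, the TMM and voom alternatives and, rounded to whole numbers, the distance rule. Because all transcripts of a sample share its TPM total, a gene's TPM also depends on the others.

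The SD within strains is the residual SD after removal of the strain mean. Strain, year and pool were tested with limma 3.58.1 in R 4.3.3, year and pool with strain as a term, with Benjamini-Hochberg adjustment over 7218 genes and a threshold of 0.05. Samples are independently grown cultures per the study's methods, and the labels give strain, year and pool, with a prefix and plate-like and well-like codes in the titles. Prefix and plate entered no test, and their part of the within-strain sum of squares is given. The strain share is the one-way variance component. The distance rule was rebuilt here from the description in the study's methods, on inputs computed here, so the samples it keeps need not be those of the authors. It used DESeq2 1.42.0 variance-stabilized counts, and edgeR 4.0.16 gave the TMM factors. Genes were placed with the Ensembl annotation of WBcel235. The fits were tested on simulated data.

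Rules drew the 12 largest SDs, 3 genes on each side of the limit and 3 of each list with 3 or more members. They also drew 3 at each end of year difference, strain share and concentration, and the 3 closest to each cluster mean. Not all genes so drawn are described above, for example not col-73, col-175 and col-49, the listed collagens of largest SD. All other genes, among them dpy-5, dpy-13, sqt-3, bli-2, gsp-3 and spch-1, were chosen after their values were seen. So were the strains whose cultures are given. The members and the gene lists were chosen with earlier results of these data known. Intervals for counting error were not computed. Alternatives changed the pseudocount, the filter, the scaling, the test, the samples and the clustering height. The GTF holds no sequence, and no sequence is shown.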

Additional observations from a re-analysis of the deposited data

How the results depend on the processing

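Of 93 recomputed main values, 74 kept to within the spread or to within 1.5 times the first value and 19 moved. The cause of these shifts was not tested, other than that fewer genes were tested under a stricter filter. With a minimum mean of 1 TPM or with no minimum, 27 of the 200 genes stayed among the 200 most variable, and non-coding genes took 168 places and listed collagens and sperm genes none. With a minimum of 50 TPM, 96 of the 200 genes were present. All 96 stayed, as they must, since this filter removes other genes and changes no SD. Of the 96, 76 were called among strains (94.4% of all genes), 36 between years (47.7%) and 95 among pools (99.6%). The pool share was 20.1% and the strain share 0.609. The year call, 57 genes, was 101 with the samples kept by the distance rule (51.04% of all genes). It was 36 with voom (40.5%) and 28 of 147 with protein-coding genes rescaled (48.5%). When 1 replicate number was left out it ran from 3 to 53. The 3 was without replicate 3 (3.159% of all genes), which mostly carried the later-year label in strains of both years. The pool share, 16.8%, ran from 18.5 to 21.2% without 1 replicate and was 18.6% for genes with a median count of at least 50. With fewer cultures the pool terms fit a larger part by themselves, so the values without 1 replicate cannot be set against the 16.8%. The strain share, 0.584, was 0.695 with the samples kept, under a rule that itself removes spread within strains. The tree gave 5 clusters in place of 3 at height 0.4. Leaving out 1 replicate number kept 172 to 180 of the 200 genes, and the listed sperm genes then numbered 13 to 34 in place of 24. With a pseudocount of 0.1 they numbered 13 and with 1 they numbered 37, while listed collagens numbered 46 and 47. The alternatives of count minimum, protein-coding rescaling and omitted libraries were chosen after seeing the data. For single genes, 416 SDs stayed within the spread and 151 moved. No paired analysis was possible because replicate numbers follow accession order and pair no samples.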

Other observations

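The 200 genes are 2.77% of all genes measured, so a short list without a member shows little. None of 76 measured genes of cytosolic ribosomal proteins was among them (median SD 0.228 against 0.277 over all genes), nor any of 59 lipid metabolism genes (0.319), 59 detoxification genes (0.328), 35 oocyte and eggshell genes (0.331) or 6 yolk genes (0.518). Of 82 intestinal immune effector genes 1 was a member, and of 46 heat shock genes 1, shares near that of all genes or below it. The lists were chosen with earlier results of these data known. Among transposable elements, 6 had a mean of at least 10 TPM, and 0 of them reached the SD of the 200 genes.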
